A study of Mus musculus with 6 samples.

Results

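The 3 mouse RUNX genes (*Runx1*, *Runx2* and *Runx3*), their common partner *Cbfb* and 6 genes of corepressors that bind RUNX proteins (*Runx1t1*, *Cbfa2t2*, *Cbfa2t3*, *Tle1*, *Tle3* and *Tle4*) were examined. The data are bulk RNA-seq of dorsal root ganglion (DRG) and nerve tumor tissue. These 10 genes were chosen as a named set from the 24062 genes of the deposited count tables. All 10 had a row and passed the filter on low counts. The study asked what happens in neurofibroma, a benign tumor of the Schwann cell (SC) lineage, when RUNX1 and RUNX3 are removed from that lineage together. It compared 3 libraries from *Nf1*fl/fl;DhhCre mice with 3 libraries labelled as a double knockout (DKO-labelled), floxed at *Runx1* and *Runx3* and carrying the same Cre, all of strain background C57BL/6-I129. The labels give no *Nf1* allele for the second genotype, while the extraction protocol and the study's methods state that these mice were *Nf1*fl/fl as well. Neither a treatment nor an age is stated for these mice. The labels name the tissue DRG in one genotype and neurofibroma in the other, where the protocol names DRG and tumors for both. The libraries hold 12439296 to 16682194 counted reads each, and the replicates of a genotype are separate mice according to their mouse numbers.

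Cre driven by the *Dhh* promoter recombines floxed genes in SCs and their precursors, so cells of the same tissue from other lineages, such as macrophages, keep intact copies of *Runx1* and *Runx3*. Recombination was not measured here by cell type. A library of whole tissue counts transcripts of all these cells. The tissue was checked against marker genes. The SC gene *Sox10* was between 195 and 256 CPM (read counts scaled to a common library total, with TMM factors) in the 6 libraries, and the summed level of 7 SC markers ranged from 1282 to 1462 CPM in *Nf1*fl/fl;DhhCre and from 1290 to 1747 CPM in the DKO-labelled libraries. Other cell types differed between the genotypes, as did the tissue that the labels name. The labelled tissue changes with the genotype, so the parts of tissue and genotype in these levels cannot be told apart, and neither was tested. All 12 DRG neuron markers were higher and 10 of 12 macrophage markers lower in the DKO-labelled libraries, with summed levels of 1254 to 2541 against 6255 to 14173 CPM for neurons and of 1075 to 2248 against 170 to 428 CPM for macrophages. Skeletal muscle markers stood apart in replicate 2 of each genotype, at 2210 and 11007 CPM in sum against at most 60.3 CPM in the other libraries. In bulk tissue a lower level of a gene can come from fewer cells of a type or from less RNA per cell, and these libraries cannot tell them apart.

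RUNX proteins bind DNA through the Runt domain at a short motif, and CBFB, which does not touch DNA itself, binds that domain and strengthens its hold. Depending on the partner they recruit, RUNX proteins activate or repress a gene. The ETO family (encoded by *Runx1t1*, *Cbfa2t2* and *Cbfa2t3*) carries the NCoR, SIN3 and histone deacetylase complexes to DNA, and Groucho proteins (encoded by *Tle1*, *Tle3* and *Tle4*) bind the C-terminal end of RUNX factors. RUNX1 is best known for blood formation and, in the DRG, for pain-sensing neurons, RUNX2 for bone, and RUNX3 for T cells and for the sensory neurons that report limb position.

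The RUNX genes share a stretch in their promoters that consists of the RUNX motif repeated. It is shown because it is what the 3 RUNX genes have in common and the other genes with a promoter window here do not. Promoter windows from RefSeq (GRCm38.p6), from 250 bases before to 50 bases after a transcription start, were found for 9 of the 10 genes, in 13 windows. *Runx1t1* was named in none of them. The motif was searched on both strands in 2 spellings. One is TGTGGT, which the other strand shows as ACCACA. The other is TGCGGT, which the other strand shows as ACCGCA. The windows below are written 5′ to 3′ on the gene's strand, with the repeated ACCACA in capitals.
Runx1, chr16:92826025-92826054, minus strand: cataaacaACCACAgaACCACAagttgggt
Runx2, chr17:44814583-44814612, minus strand: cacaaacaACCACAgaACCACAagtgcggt
Runx3, chr4:135120503-135120532, plus strand: gtccctcaACCACAgaACCACAaggccagg

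With the start counted as base 0, the repeat lies from base 28 to 41 in *Runx1* and from base 23 to 36 in *Runx2*, both after the start, and from base -134 to -121 in *Runx3*, before it. The full repeat, ACCACAGAACCACA, occurred in 4 of 32817 mouse promoter windows (0.0122%). Beside the RUNX genes it was in that of *Gm16225*, whose window covers the same stretch beside *Runx3* from the other strand. With any 2 bases between the hexamers (ACCACANNACCACA) it occurred in 7 (0.0213%). Single hexamers are common, TGTGGT in 16.8% and TGCGGT in 6.45% of all windows. Beyond the repeat, the *Runx2* window held a further TGTGGT and a TGCGGT, and 1 of the *Cbfa2t3* windows a TGCGGT. The windows of *Cbfb*, *Cbfa2t2*, *Tle1*, *Tle3* and *Tle4* and the second windows of *Runx1*, *Runx3* and *Cbfa2t3* held neither hexamer. A match is a description of the sequence, and binding was not measured in these libraries.

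The genes removed by design were examined first. *Runx1*, on chromosome 16 of GRCm38 from 92601466 to 92826149 on the minus strand, was at 131, 141 and 172 CPM in *Nf1*fl/fl;DhhCre replicates 1 to 3. It was at 84.0, 78.9 and 185 CPM in the DKO-labelled libraries. Replicates 1 and 2 of the latter lay below every *Nf1*fl/fl;DhhCre library, and replicate 3 was the highest of all 6, so the groups overlapped. The means were 148 ± 21.3 and 116 ± 60.1 CPM (SD, n = 3 each), and the log2 fold change was -0.44 (SE 0.32, 95% interval -1.19 to 0.31, limma-voom, Benjamini-Hochberg adjusted p = 0.370 over 15652 genes). Without DKO-labelled replicate 3 it was -0.85 (adjusted p = 0.0290, limma-voom), and its range was -0.85 to -0.21 when each of the 6 libraries was left out in turn. The library of another sequencing run is DKO-labelled replicate 2 or 3, and without replicate 2 the log2 fold change was -0.22 (adjusted p = 0.718, limma-voom). The part of the run in the *Runx1* value was not tested. *Runx1* was thus not lower in 1 DKO-labelled library, and its level in whole tissue does not measure recombination there. The genotype is named by its label throughout. That library had the highest summed level of DRG neuron markers (14173 CPM) and of 6 markers of non-peptidergic nociceptors, the pain-sensing neurons that depend on RUNX1, at 1261 CPM. Their sums were 673 and 716 CPM in the other DKO-labelled libraries and 212 to 321 CPM in *Nf1*fl/fl;DhhCre. All 6 of these markers were higher in the DKO-labelled libraries, whereas *Runx1* was lowest in DKO-labelled replicates 1 and 2, so the order of the other libraries by *Runx1* was not that of these neurons. Their part in the *Runx1* value was not tested.

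*Runx3*, on chromosome 4 from 135120652 to 135177990 on the plus strand, was the least abundant RUNX gene, with 125 to 466 counted reads in a library. Its level was 19.9, 15.1 and 29.9 CPM in *Nf1*fl/fl;DhhCre and 13.5, 10.3 and 12.1 CPM in the DKO-labelled libraries. Every library of the second group lay below every library of the first, though DKO-labelled replicate 1 and *Nf1*fl/fl;DhhCre replicate 2 were close. The log2 fold change was -0.79 (SE 0.30, 95% interval -1.49 to -0.09, Benjamini-Hochberg adjusted p = 0.104 by limma-voom), so *Runx3* did not pass the threshold. DESeq2 gave -0.86 with an adjusted p of 0.0278, and limma-voom without *Nf1*fl/fl;DhhCre replicate 2 gave -0.99 with an adjusted p of 0.0430. Without *Nf1*fl/fl;DhhCre replicate 3 the log2 fold change was -0.49 (adjusted p = 0.211, limma-voom), and in the other fits that left out a library the adjusted p was 0.175 to 0.256. The 6 libraries had the same order by *Runx3* as by summed macrophage markers, from *Nf1*fl/fl;DhhCre replicate 3 at the top to DKO-labelled replicate 2 at the bottom. The summed bone and cartilage markers had this order too, although neither *Col2a1* alone nor the sum of the other 8 genes did. The 12 T and NK cell markers, another cell type known for RUNX3, summed to 20.6, 19.1 and 59.3 CPM against 7.65 to 7.79 CPM, and 1 of the 9 that were tested (*Klrb1c*) passed the threshold, as lower. The part of these cells in the *Runx3* value was not tested. The counts of *Runx1* and *Runx3* cover whole genes, so exons outside a floxed stretch still give reads after recombination, and neither value measures the share of recombined cells.

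**Figure D1:**
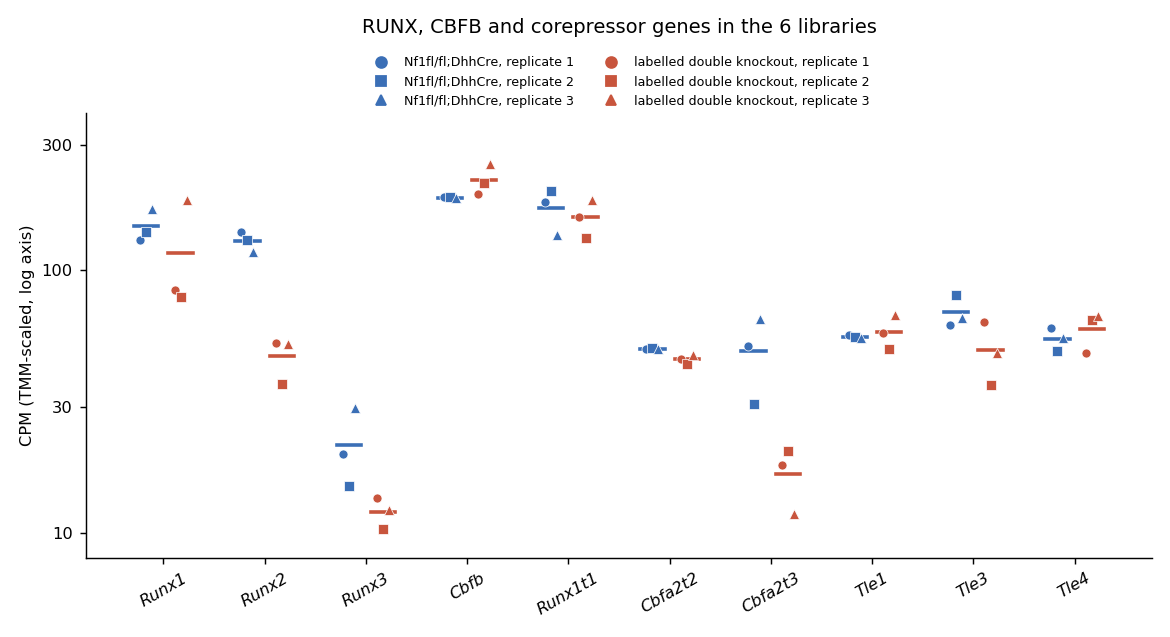
CPM of the 10 genes on a log axis, with each point 1 library (blue, *Nf1*fl/fl;DhhCre; red, labelled double knockout; the shape gives the replicate) and each bar the mean of 3 libraries. *Runx2*, *Runx3*, *Cbfb*, *Cbfa2t2* and *Cbfa2t3* do not overlap between the genotypes (*Cbfb* does when scaled by library totals only), by the widest gap for *Runx2*, and *Runx1* in DKO-labelled replicate 3, at 185 CPM, lies above all other libraries.

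*Runx2*, the RUNX gene that the design leaves intact, fell in the DKO-labelled libraries and had the smallest adjusted p of the 10 genes. *Runx2*, on chromosome 17 from 44495987 to 44814797 on the minus strand, was at 141, 131 and 118 CPM in *Nf1*fl/fl;DhhCre and at 52.8, 36.8 and 52.2 CPM in the DKO-labelled libraries. The groups were far apart, since the highest library of the second was below the lowest of the first. The means were 130 ± 11.5 and 47.3 ± 9.04 CPM (SD, n = 3 each), a level 2.76-fold lower (log2 fold change -1.46, SE 0.17, 95% interval -1.87 to -1.06, limma-voom, Benjamini-Hochberg adjusted p = 0.00764). By p-value it was gene 92 of 15652. *Runx2* passed under all 7 other methods and all 6 fits that left out a library, with log2 fold changes from -1.55 to -1.30 in the latter.

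Of the 10 genes, 2 passed the adjusted threshold of 0.05, *Runx2* and *Cbfa2t3*, both lower and both by more than 2-fold. Among all genes tested, 19.3% passed it in either direction and 8.22% as lower, while 5.36% were lower and 8.03% higher by more than 2-fold as well. At an unadjusted p under 0.05 the count was 4 of 10 (adding *Runx3* and *Tle3*) beside 35.2% of all genes. Counted in either direction, these shares are near those of all genes. The count over all genes fell from 3017 to 383 without *Nf1*fl/fl;DhhCre replicate 1, where *Runx2* was the 1 gene of the 10 still called. The groups did not overlap for 5 of the 10 genes, 4 lower and 1 higher in the DKO-labelled libraries, beside 42.3% of all genes (20.5% lower and 21.8% higher). The median absolute log2 fold change was 0.33 over the 10 genes and 0.44 over all genes.

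Markers of cell types known to express *Runx2* were read beside it. Markers of bone and cartilage summed to 89.6, 84.1 and 105 CPM against 40.3, 30.3 and 32.6 CPM. Of these 9 genes 5 could be tested and 1 fell, the cartilage collagen gene *Col2a1* (log2 fold change -2.20). *Col2a1* carried the difference in the sum, at 73.6, 43.3 and 86.2 CPM against 20.1, 12.7 and 11.2 CPM. The other 8 genes, summed without it after the values were seen, were at 16.02, 40.9 and 19.1 CPM against 20.2, 17.6 and 21.4 CPM and overlapped. The osteoblast genes *Sp7*, *Bglap* and *Bglap2* each had a mean under 1 CPM in both genotypes. *Ibsp*, another bone gene, was at 29.4 CPM in *Nf1*fl/fl;DhhCre replicate 2 and at 0.139 to 4.16 CPM elsewhere, and *Alpl*, which encodes alkaline phosphatase, was not called, with means of 8.71 ± 3.96 and 12.2 ± 3.57 CPM (SD, n = 3 each). Fibroblast markers, mesenchymal cells of the nerve sheath, summed to 9243, 9906 and 9690 CPM against 5638, 3396 and 3824 CPM, with 7 of 9 lower and a median log2 fold change of -1.09. Among SC markers, 2 of 7 were higher and none lower. *Runx2* had the order of the fibroblast sum among the DKO-labelled libraries but not within *Nf1*fl/fl;DhhCre, where the library highest in *Runx2* (replicate 1) was the lowest in fibroblast markers. The part of these cells in the *Runx2* value was not tested.

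**Figure D2:**
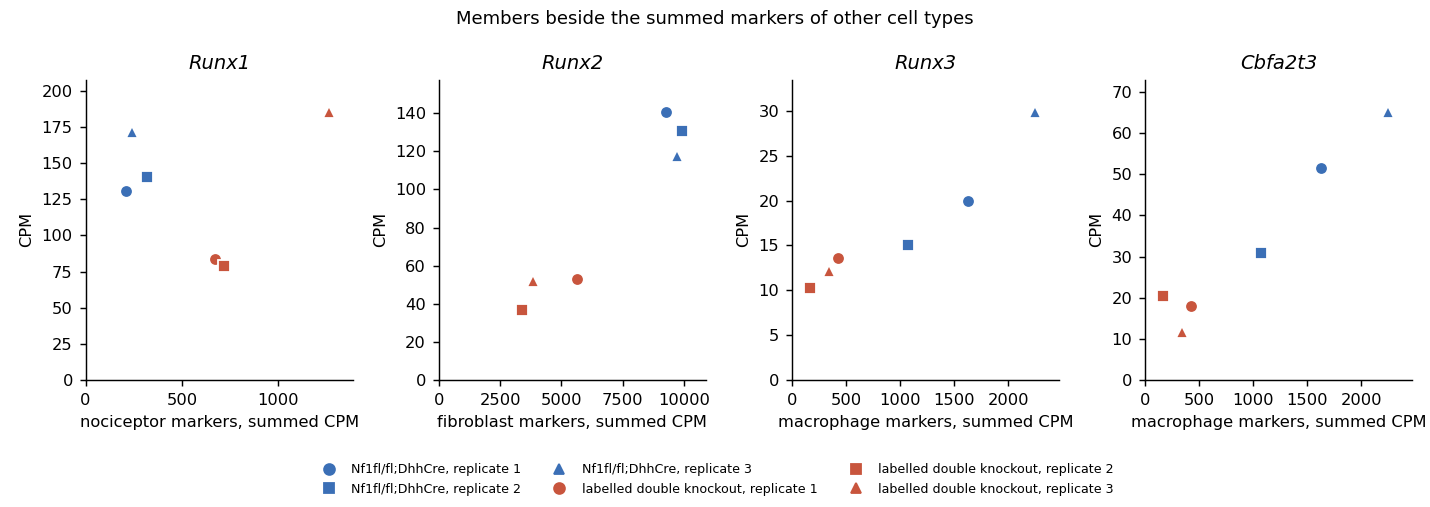
CPM of *Runx1*, *Runx2*, *Runx3* and *Cbfa2t3* (vertical axes) against the summed CPM of markers of nociceptors, fibroblasts or macrophages (horizontal axes), with 1 point per library. The genotypes do not overlap on either axis for *Runx2*, *Runx3* and *Cbfa2t3*, and the pairings were chosen after the values were seen.

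The partner *Cbfb* had the most even level of the 10 genes within *Nf1*fl/fl;DhhCre apart from *Cbfa2t2*, and no change was called. *Cbfb*, on chromosome 8 from 105170674 to 105217989 on the plus strand, was at 190.3, 190.1 and 189 CPM in *Nf1*fl/fl;DhhCre. It was at 195.5, 215 and 254 CPM in the DKO-labelled libraries. Each of these was above the *Nf1*fl/fl;DhhCre libraries, which was the only such case among the 10 genes. The groups overlapped when the libraries were scaled by their totals only, at 191 to 198 and 197 to 244 CPM. The log2 fold change was 0.22 (SE 0.13, 95% interval -0.09 to 0.52, limma-voom, Benjamini-Hochberg adjusted p = 0.274), which leaves room for a rise of up to 1.43-fold.

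Levels of different genes can be compared only per length, so the CPM was divided by the kilobases of merged exons of each gene (CPM per kb). *Cbfb* was the most abundant of the 10 genes in both genotypes, at 54.5 ± 0.272 and 63.6 ± 8.57 CPM per kb (SD, n = 3). *Runx1t1* came next, at 21.7 ± 4.10 and 20.1 ± 3.25 CPM per kb, above every other gene but *Cbfb* in both genotypes. In *Nf1*fl/fl;DhhCre *Runx2* followed with 14.7 ± 1.30 and *Runx1* with 12.3 ± 1.77 CPM per kb, a difference of the size of their spread. In the DKO-labelled libraries *Runx2* dropped from the third to the sixth place (from the fourth to the seventh, behind *Runx1* in both genotypes, with the longest transcript as the length), at 5.35 ± 1.02 CPM per kb, while *Runx1* kept its place at 9.66 ± 4.996 CPM per kb with a wide spread. *Runx3* was at 4.32 ± 1.51 and 2.40 ± 0.328 CPM per kb. The least abundant gene was *Runx3* in *Nf1*fl/fl;DhhCre and *Cbfa2t3*, at 1.403 to 2.44 CPM per kb, in the DKO-labelled libraries. The other genes lay between 5.82 (*Cbfa2t2*) and 9.64 (*Tle4*) CPM per kb in *Nf1*fl/fl;DhhCre and between 4.26 (*Tle3*) and 10.5 (*Tle4*) CPM per kb in the DKO-labelled libraries. Within *Nf1*fl/fl;DhhCre *Tle4* stood above *Tle1* by more than the spread of either. With the longest transcript as the length this order of means turned (12.1 and 12.8 CPM per kb), by less than the spread of *Tle4*. By merged exons *Tle1* (6.40 ± 0.0782) also stood above *Cbfa2t2* (5.82 ± 0.0247 CPM per kb, SD, n = 3 each). *Tle3* and *Cbfa2t3* lay between them with wider spreads. In the DKO-labelled libraries neighbours from *Tle4* to *Tle3*, and *Runx3* and *Cbfa2t3*, differed by less than the larger of their spreads, except that *Tle1* exceeded *Runx2* by slightly more.

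The makeup of the RUNX transcripts differed between the genotypes. The 3 RUNX genes together made 30.8, 29.5 and 33.6 CPM per kb in *Nf1*fl/fl;DhhCre and 15.7, 12.8 and 23.8 CPM per kb in the DKO-labelled libraries. Of this sum *Runx2* made 51.7, 50.1 and 39.7% in *Nf1*fl/fl;DhhCre and 38.1, 32.6 and 24.9% in the others, with no overlap. *Runx1* made 35.3, 39.7 and 42.5% against 44.6, 51.3 and 64.9%, also with no overlap, in the opposite direction. The shares of a library add up to its whole, so this rise is not a result apart from the fall of *Runx2*. No change of *Runx1* itself was called. *Runx3* made 10.2 to 17.8% in one genotype and 10.2 to 17.3% in the other. *Runx2* exceeded *Runx1* per kb in *Nf1*fl/fl;DhhCre replicates 1 and 2 (ratios 1.47 and 1.26) and in no other library, with a ratio of 0.934 in replicate 3 and of 0.855, 0.635 and 0.383 in the DKO-labelled libraries. The ratio of *Cbfb* to the RUNX sum, by merged exons, was 1.78, 1.85 and 1.62 in *Nf1*fl/fl;DhhCre and 3.59, 4.82 and 3.07 in the DKO-labelled libraries. *Cbfb* transcripts per length therefore exceeded those of the RUNX genes in every library. The size of this ratio depends on the length used. In *Nf1*fl/fl;DhhCre the longest transcript gave means of 25.2 in place of 12.3 CPM per kb for *Runx1*, and of 65.6 in place of 54.5 for *Cbfb*. These shares and ratios were not tested. With the longest transcript *Runx1* exceeded *Runx2* in every library, also in *Nf1*fl/fl;DhhCre replicates 1 (45.3 against 44.3%) and 2 (49.9 against 42%).

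**Figure D3:**
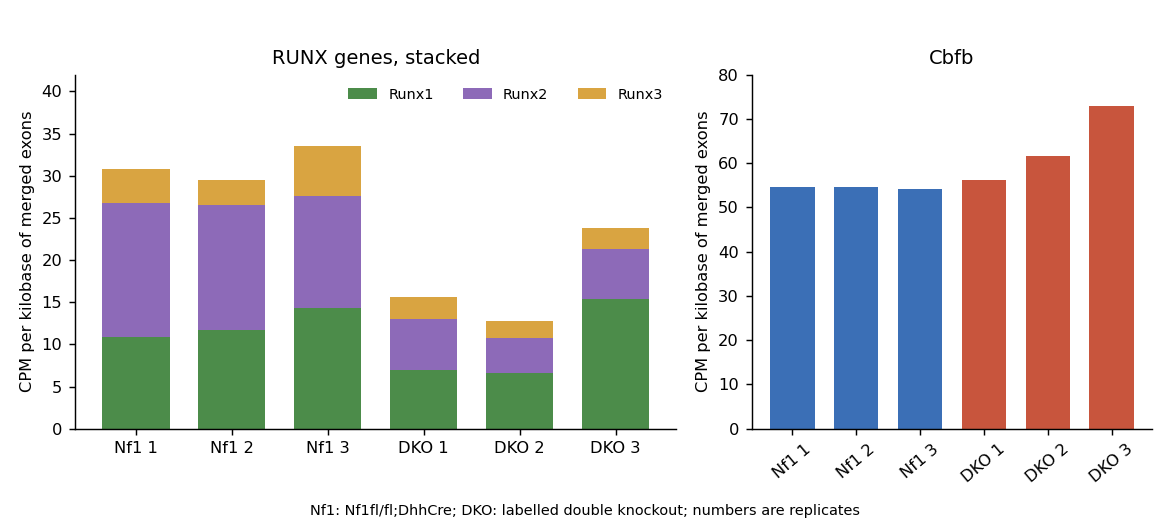
CPM per kilobase of merged exons in each of the 6 libraries, with *Runx1*, *Runx2* and *Runx3* stacked (left) and *Cbfb* (right, in the genotype colors). The *Runx2* segment is smaller in each DKO-labelled library, and the *Cbfb* bars exceed the RUNX stack everywhere.

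Among the ETO family genes *Cbfa2t3* fell while *Runx1t1* and *Cbfa2t2* did not pass the test. *Cbfa2t3*, known as a corepressor in blood stem cells and macrophages and located on chromosome 8 from 122625141 to 122699109 on the minus strand, was at 51.6, 30.9 and 65.2 CPM in *Nf1*fl/fl;DhhCre. It was at 18.1, 20.4 and 11.8 CPM in the DKO-labelled libraries. The groups did not overlap, although the *Nf1*fl/fl;DhhCre libraries spread over more than their lowest value. The level was 2.91-fold lower (log2 fold change -1.54, SE 0.35, 95% interval -2.36 to -0.72, limma-voom, Benjamini-Hochberg adjusted p = 0.0262). All 7 other methods called it, but only 1 of the 6 fits that left out a library did, the one without *Nf1*fl/fl;DhhCre replicate 2. In the others the adjusted p was 0.0593 to 0.0940 (limma-voom) and the log2 fold change -1.70 to -1.27. Among the *Nf1*fl/fl;DhhCre libraries *Cbfa2t3* had the order of the macrophage marker sums (1632, 1075 and 2248 CPM). In the DKO-labelled libraries it did not, as these sums were 428, 170 and 347 CPM and *Cbfa2t3* was highest where they were lowest. The part of macrophages in its value was not tested.

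*Runx1t1*, the gene joined to *RUNX1* in a leukemia translocation, lies on chromosome 4 from 13743436 to 13893649 on the plus strand. It was at 182, 200.2 and 137 CPM in *Nf1*fl/fl;DhhCre and at 160, 133 and 185 CPM in the DKO-labelled libraries. These overlapped over most of their range, and the log2 fold change was -0.11 (95% interval -0.55 to 0.33, adjusted p = 0.722, limma-voom). *Cbfa2t2*, on chromosome 2 from 154436481 to 154539356 on the plus strand, was almost the same in each *Nf1*fl/fl;DhhCre library, at 50.4, 50.5 and 50.1 CPM. It was slightly lower in each DKO-labelled library, at 46.0, 44.1 and 47.7 CPM, without overlap. Its log2 fold change was -0.13 (95% interval -0.42 to 0.15, adjusted p = 0.485, limma-voom), so that a change beyond -0.42 lies outside the interval. Of the summed ETO transcripts per kb, *Cbfa2t3* made 17.7, 10.6 and 25.3% in *Nf1*fl/fl;DhhCre and 7.82, 10.03 and 4.65% in the DKO-labelled libraries. *Runx1t1* made most of that sum in every library, from 55.9 to 77.1%.

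None of the Groucho genes passed the adjusted threshold. *Tle3*, on chromosome 9 from 61372366 to 61418497 on the plus strand, was at 61.7, 80.8 and 66.1 CPM in *Nf1*fl/fl;DhhCre and at 63.8, 36.6 and 48.4 CPM in the DKO-labelled libraries. Replicate 1 of the latter lay within the range of the former and the others below it. The log2 fold change was -0.52 (SE 0.22, 95% interval -1.03 to -0.0020, Benjamini-Hochberg adjusted p = 0.141 by limma-voom). *Tle1*, on chromosome 4 from 72117142 to 72200919 on the minus strand, was at 56.5, 55.5 and 55.2 CPM against 57.5, 50.2 and 67.5 CPM (log2 fold change 0.06, 95% interval -0.28 to 0.41, adjusted p = 0.797, limma-voom). *Tle4*, on chromosome 19 from 14448150 to 14598051 on the minus strand, was at 60.4, 49.3 and 55.2 CPM against 48.3, 65.0 and 66.7 CPM (log2 fold change 0.12, 95% interval -0.28 to 0.52, adjusted p = 0.650, limma-voom). Both overlapped between the genotypes. The summed Groucho transcripts were 21.7 to 22.4 CPM per kb in *Nf1*fl/fl;DhhCre and 20.3 to 23.6 CPM per kb in the DKO-labelled libraries. Within that sum *Tle4* was the largest in every library (39.4 to 56.1%) by merged exons, whereas with the longest transcript *Tle1* had the higher mean in both genotypes (12.8 against 12.1 and 13.4 against 13.2 CPM per kb). The share of *Tle3* was 23.7, 31.6 and 26.2% against 26.7, 15.5 and 17.6%.

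**Figure D4:**
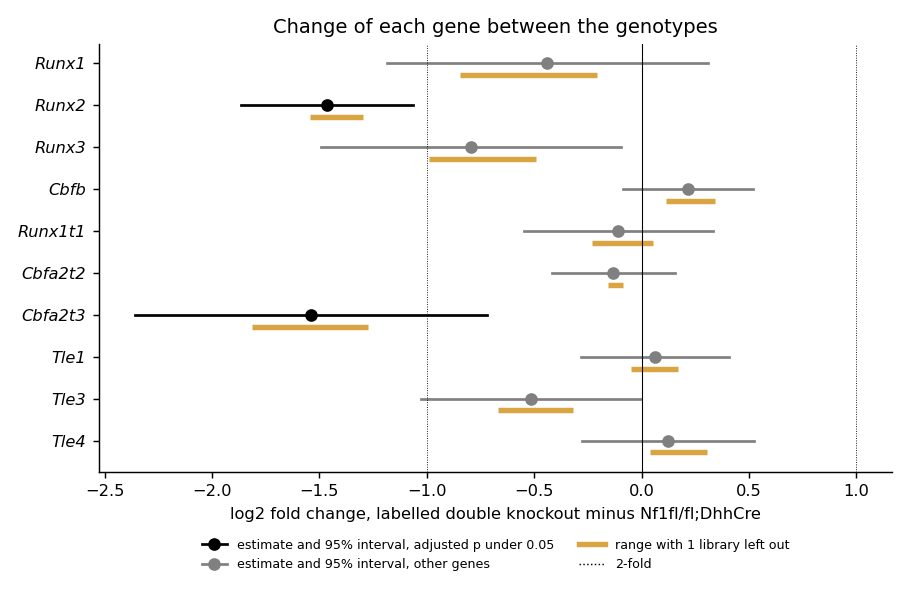
Log2 fold change (labelled double knockout minus *Nf1*fl/fl;DhhCre) of each of the 10 genes with its 95% interval, black for adjusted p under 0.05, and in yellow the range over the 6 fits that left out a library; dotted lines mark 2-fold. *Runx2* and *Cbfa2t3* are the only genes in black, and the yellow range of *Runx1* runs from -0.85 to -0.21.

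The exons of *Runx1*, *Runx2*, *Cbfa2t3* and *Tle1* overlap an antisense gene in GENCODE M21 (*Gm26626*, *Runx2os1*, *Gm10612* and *Gm11250*). None of these has a row of its own in the counts, and whether the counting used the strand is not stated, so reads of a gene and its antisense partner cannot be told apart.

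The genes through which RUNX proteins act were read from the same fit. Of 17 genes of the corepressor complexes, 3 fell, none rose, and the median log2 fold change was -0.08. They included *Tbl1xr1* (-0.54, SE 0.11), part of the NCoR complex, and *Sin3a* (-0.41, SE 0.11), the scaffold of the SIN3 complex. *Ncor1*, the scaffold of the NCoR complex, was at 390.1, 402 and 398 CPM against 382, 381 and 364 CPM and was not called (adjusted p = 0.593, limma-voom). The histone deacetylase genes *Hdac1*, *Hdac2* and *Hdac3* and the other Groucho genes *Tle2*, *Tle6* and *Aes* were not called either. Of 22 genes tested among 24 coactivators and partner factors, 4 fell and none rose. They included *Fli1* (-0.996, SE 0.22), an ETS factor of blood and vessel cells, *Wwtr1* (-0.56, SE 0.14), which encodes the YAP relative TAZ, and *Jun* (-0.52, SE 0.13), an AP-1 subunit. The acetyltransferase gene *Ep300* had a log2 fold change of -0.40 (SE 0.11). Of 18 genes tested among 20 modifiers and antagonists, the kinase gene *Mapk3* rose (0.97, SE 0.20) and *Cdk6*, whose product binds RUNX1, fell (-1.49, SE 0.37). Over all genes tested 11.1% were higher and 8.22% lower by the same rule.

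Genes that RUNX factors are known to control in blood, bone and sensory neurons were read from 3 further lists. Of 8 genes tested among 13 RUNX targets of blood cells, 3 fell, namely *Itgae* (log2 fold change -2.89, SE 0.71) and *Itgal* (-1.87, SE 0.45), both integrin genes of T cells and other leukocytes, and *Csf1r* (-2.16, SE 0.40), the receptor of macrophage growth factor CSF1. The others did not pass, and the RUNX1 target *Spi1* was at 12.2, 8.70 and 22.2 CPM against 3.83, 0.740 and 4.36 CPM (adjusted p = 0.0533, limma-voom). The list median was -2.07, and 4 of the 13 genes are also among the immune cell markers. Macrophage markers moved alike, by a median of -2.35. Of 8 genes tested among 13 RUNX2 targets of bone, *Col1a2* (-1.09, SE 0.20) and *Col1a1* (-0.94, SE 0.25) fell, both also fibroblast markers and both encoding type I collagen. The median over all fibroblast markers was -1.09. The osteopontin gene *Spp1* was not called, at 399 to 506 CPM over all 6 libraries, and the median of the bone list was -0.08.

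Of 12 sensory neuron genes that RUNX1 or RUNX3 is known to activate or repress, 8 rose, none fell, and the median log2 fold change was 2.40. *Mrgprd*, a receptor of nociceptors, was at 5.83, 10.5 and 6.35 CPM in *Nf1*fl/fl;DhhCre and at 62.9, 65.4 and 95.3 CPM in the DKO-labelled libraries (log2 fold change 3.31, SE 0.30). The sodium channel gene *Scn11a* (3.09, SE 0.50) and the cold sensor gene *Trpm8* (2.85, SE 0.60) rose as well. The DRG neuron markers moved alike, by a median of 2.41, and 5 of the 12 genes are themselves neuron markers here. Among the receptors of sensory subtypes *Ntrk2* was at 632, 461 and 546 CPM against 500.2, 432 and 332 CPM (adjusted p = 0.187, limma-voom). *Ntrk3*, the receptor of proprioceptors that RUNX3 maintains, rose (1.49, SE 0.26). The 4 proprioceptor markers summed to 263 to 404 CPM in *Nf1*fl/fl;DhhCre and to 408 to 507 CPM in the DKO-labelled libraries, and 1 of the 4 (*Ntrk3*) was called. Of the highest sum, in DKO-labelled replicate 2, *Pvalb* made 151 CPM. *Pvalb*, also a gene of fast muscle, was at 1.04, 24.3 and 0.192 CPM against 2.23, 151 and 5.88 CPM, high in the same libraries as the muscle markers, whose part in these sums was not tested.

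**Figure D5:**
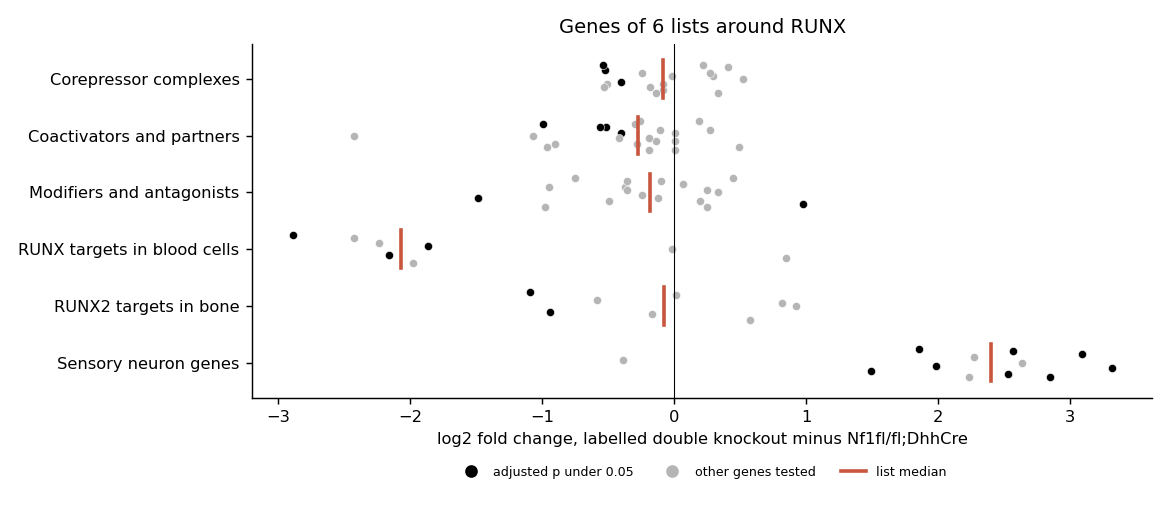
Log2 fold change (labelled double knockout minus *Nf1*fl/fl;DhhCre) of each tested gene in 6 lists around RUNX, black for adjusted p under 0.05, with the list median in red. The medians of the complexes, partners, modifiers and bone targets lie between -0.27 and -0.08, that of blood targets at -2.07 and that of sensory neuron genes at 2.40.

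The genes most like each RUNX gene over the 6 libraries were found among 10222 genes whose log2 CPM averaged 3 or more, by the root mean square difference of log2 CPM profiles centred on their own mean. For *Runx2* they were *Ptgfrn* (difference 0.0755), *Apobec3* (0.101) and *Efemp1* (0.108). For *Runx1* they were *Ndst3* (0.0751), *Prkra* (0.159) and *Tnfrsf11a* (0.179). All 3 were higher in DKO-labelled replicate 3 than in the other DKO-labelled libraries, as *Runx1* was, but unlike *Runx1* they were highest in *Nf1*fl/fl;DhhCre replicate 3. For *Runx3* they were *Xaf1* (0.0718), *Trim21* (0.0843) and *Pdia4* (0.0950). Of the other 9 genes examined here, the closest to *Runx2* were *Runx3* (0.484, place 977) and *Cbfa2t3* (0.508, place 1126). With profiles centred within each genotype 1 of the 9 genes stayed among the nearest, *Ndst3* for *Runx1*, now beside *H2-T24* (0.089) and *Pvrl1* (0.101). The nearest to *Runx2* were then *Btbd19* (0.027), *Hspbap1* (0.039) and *Rfx3* (0.040). Those nearest to *Runx3* were *Lyn* (0.051), *Rgs12* (0.059) and *Inip* (0.060).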

How the data were processed

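The authors amplified RNA with the NuGEN Ovation system, made Nextera XT libraries, sequenced paired ends, aligned them to mm10 with TopHat (2.0.13) and counted them per gene with featureCounts (1.4.6). The deposited counts are the authors' read counts per gene, not normalized. The annotation, the strandedness and how multimapping reads were handled are not given in the sources used here. Counts were scaled by TMM (edgeR 4.0.16), filtered with filterByExpr (minimum count 10, minimum total 15), which kept 15652 genes, and fitted with limma-voom (limma 3.58.1, R 4.3.3) on genotype alone. Benjamini-Hochberg adjustment ran over all genes tested, and standard errors are moderated. Alternatives were DESeq2 size factors or library size only in limma-voom, edgeR's quasi-likelihood test, DESeq2 1.42.0, CPM above 1 in at least 3 libraries, no filter, quality weights and leaving out each library. Positions and merged exon lengths came from GENCODE M21. *Adgre1* was matched as *Emr1*. Of each pathway list up to 3 genes per direction were named, those past the threshold with the largest change, beside genes central to a listed complex or cell type. A gene that meets this rule is not reported here. The genes and lists were chosen with earlier results of these data known. The fits were tested on simulated data.

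For some libraries of both genotypes the mouse number in the title is another than that in the deposited data. Each of these mismatches stays within its genotype, so the genotype labels are the same under either number. The genotypes themselves were not checked here. The labels put 1 library labelled double knockout, replicate 2 or 3, in another sequencing run. With 3 libraries against 3, an exact permutation test of 1 value cannot give a two-sided p below 0.1, so none was used.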

Additional observations from a re-analysis of the deposited data

How the results depend on the processing

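*Runx2* was called under every method and in every fit that left out a library. The 10 genes gave 2 calls under every alternative method except DESeq2, which gave 3 by adding *Runx3*. Leaving out 1 library gave 1 to 3 calls by adjusted p and 1 to 2 with the 2-fold threshold. *Cbfa2t3* lost its call without *Nf1*fl/fl;DhhCre replicate 1 or 3 and without any 1 DKO-labelled library (log2 fold change -1.70 to -1.27), and *Runx1* gained one without DKO-labelled replicate 3. Direction turned for 2 genes with values near 0. *Runx1t1* was at 0.053 without *Nf1*fl/fl;DhhCre replicate 2 and at 0.017 without DKO-labelled replicate 2, in a range of -0.23 to 0.053 over the libraries left out. *Tle1* was at -0.015 with library size only and at -0.048 without DKO-labelled replicate 3, in a range of -0.048 to 0.17. With 1 library of another sequencing run among DKO-labelled replicates 2 and 3, *Runx2* was at -1.30 without the former and at -1.55 without the latter, and *Runx1* at -0.22 and -0.85. Over all genes, limma-voom called 3017 by adjusted p and DESeq2 4574, and leaving out 1 library gave 383 to 3006, with 383 and 1203 without *Nf1*fl/fl;DhhCre replicates 1 and 3 and 1192 without DKO-labelled replicate 2.

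Levels per kb with the longest transcript in place of merged exons were 25.2 and 19.8 for *Runx1*, 20.1 and 7.31 for *Runx2*, 65.6 and 76.6 for *Cbfb* (*Nf1*fl/fl;DhhCre and DKO-labelled) and 3.09 for *Runx3* in the DKO-labelled libraries. With that length *Runx1* exceeded *Runx2* in both genotypes. The mean of *Tle1* was then above that of *Tle4* in both, by less than the spread of *Tle4*. *Cbfb* was at 55.9 in *Nf1*fl/fl;DhhCre with library size only. With no length correction *Runx1* made 49.3 and 64.3% and *Runx3* 7.16 and 7.34% of the RUNX sum. The nearest profiles shared 1 of 9 genes when centred within genotype. The cause of these differences was not tested. No paired analysis was possible because replicate numbers follow the order of the labels and pair no mice. Depth is thinnest for *Runx3*, with 125 to 466 reads in a library, and *Cbfa2t3*, with 178 to 1016.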
